A study of Mus musculus with 2 samples.

Results

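Bone formation was followed through 10 genes, *Runx2*, *Sp7*, *Ibsp*, *Bglap*, *Bglap2*, *Dmp1*, *Phex*, *Alpl*, *Enpp1* and *Ank*, chosen by name as genes of bone-forming cells and of mineralization. They are 10 of the 32285 genes counted, and each was found once in both tables. The cells came from temporomandibular joints (TMJ) of female wild-type C57BL/6 mice. Both joints of each mouse, 8 weeks old, received 10 µL of either PBS or complete Freund's adjuvant (CFA, 5 mg/mL), an inflammatory emulsion that holds killed mycobacteria. Tissue was taken after 3 weeks, and the methods state n = 3 without saying whether joints were pooled. The labels give an age of 8 to 10 weeks. Bone of the condyle and temporal side was digested in 1 mix with disc, ligament and muscle, and magnetic beads then depleted CD45-bearing (immune) cells. With 1 single-cell RNA library per condition, no difference below could be checked in a replicate, and none has a p-value.

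Osteoblasts build bone by laying down a collagen matrix that then takes up calcium phosphate, and osteocytes are osteoblasts that the matrix has buried. *Runx2* and *Sp7* (osterix) encode the transcription factors that drive this lineage. *Ibsp* (bone sialoprotein), *Bglap* and *Bglap2* (osteocalcin) and *Dmp1* (dentin matrix protein, an osteocyte product) encode proteins of the mineralizing matrix, and *Phex* encodes a membrane endopeptidase of osteoblasts and osteocytes that is needed for phosphate balance. The remaining genes set the balance of phosphate and pyrophosphate, the latter an inhibitor of mineral growth. *Alpl* encodes the alkaline phosphatase that breaks pyrophosphate down, *Enpp1* the enzyme that makes it outside the cell, and *Ank* a membrane protein that brings it or its precursor out of the cell. Cartilage cells that enlarge before bone replaces them also use several of these genes.

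Levels are given in CPM, the UMIs of a gene per 1000000 UMIs of the cells it was counted in, where a UMI stands for 1 captured RNA molecule. Cells were kept with at least 500 genes, at most 10% mitochondrial and at most 1% hemoglobin UMIs, which left 2667 PBS cells (27201994 UMIs, median 7022 per cell) and 4014 CFA cells (44432717 UMIs, median 6509.5). The hemoglobin limit removed 3178 PBS cells (54.4%) but 339 CFA cells (7.79%), so it acted unequally on the libraries. The libraries shared 10 barcodes as deposited and 2 after filtering. Clustering was run without the 10 genes and gave 37 clusters, of which 31 could be named in 17 classes from marker genes. A single cluster with 9 of 12 bone-lineage markers detected (among them *Col1a1*, *Ifitm5*, *Omd* and *Smpd3*) is called bone-lineage-like. It held 35 PBS cells (1.31%, exact 95% interval 0.916 to 1.82%) and 28 CFA cells (0.698%, 0.464 to 1.01%). It was not uniform, since 36 of its cells fell in a subcluster led by *Cxcl12*, *Ebf3* and *Lepr*, genes of marrow stromal cells. Intervals throughout cover counting error only.

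By summed level, the bone-lineage-like class was the highest of the 13 PBS classes with at least 20 cells for 6 of the 10 genes, namely *Runx2*, *Bglap*, *Bglap2*, *Dmp1*, *Phex* and *Alpl*. Among the 15 such CFA classes it was the highest for 8, with *Sp7* and *Ank* added. *Ibsp* and *Enpp1* were highest in chondrocyte-like cells in both libraries. Tenocyte-like cells, the third skeletal class, stood among the 3 highest classes for *Runx2*, *Sp7*, *Ibsp*, *Bglap*, *Bglap2* and *Alpl* in both libraries. In PBS the first rank of the bone-lineage-like class for *Runx2* and *Alpl* rests on its subcluster led by *Cxcl12*, *Ebf3* and *Lepr*. Its 26 PBS cells held 709 of the class's 918 *Runx2* and 353 of its 438 *Alpl* UMIs. The class's other subcluster, described below, stood under tenocyte-like cells for both genes in PBS. Outside these skeletal classes the genes parted, as the map of levels by class shows.

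**Figure D1:**
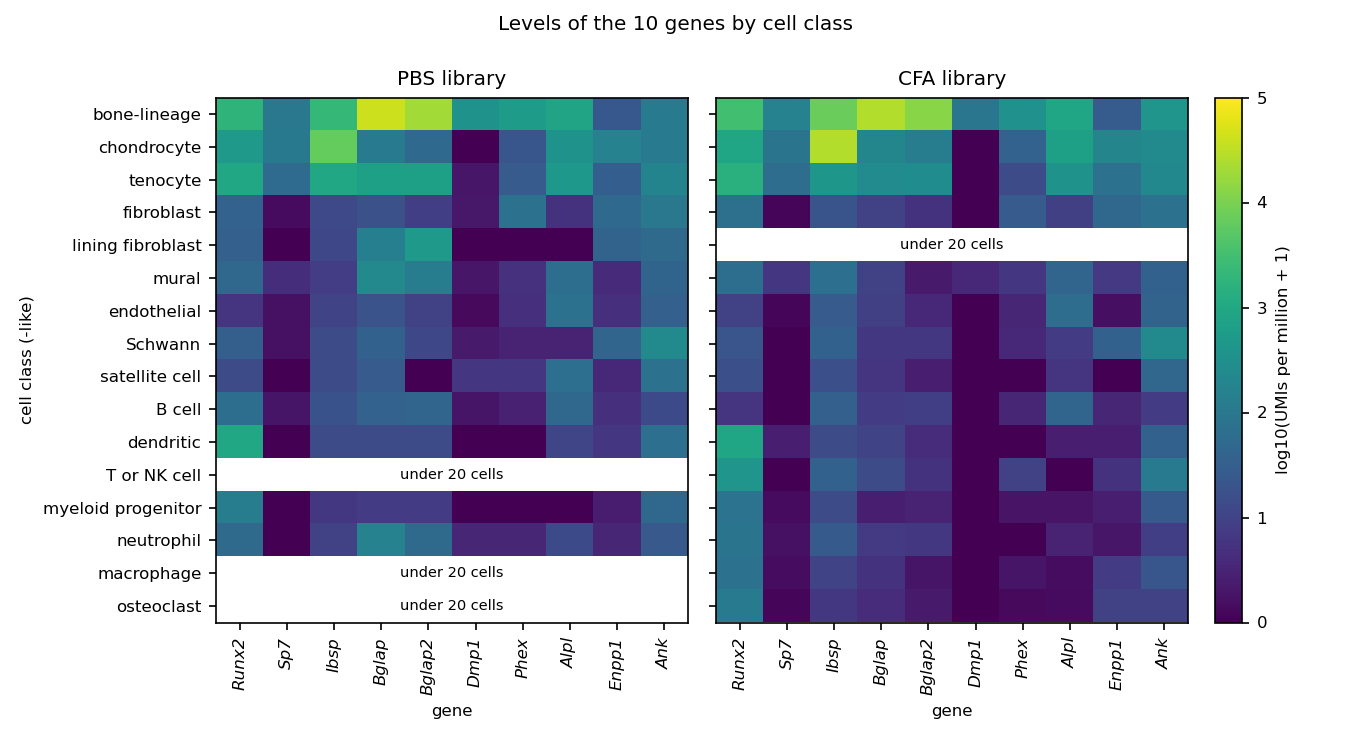
Level of each gene (columns) in each cell class (rows), as log10 of CPM plus 1, in the PBS library (left) and the CFA library (right). Classes under 20 cells in a library are blank. The top 3 rows, the skeletal classes, hold the highest levels, with *Runx2* also high in dendritic-like cells and *Ank* in Schwann-like cells.

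*Runx2* was the most widely shared of the transcription factor genes. All 35 PBS and all 28 CFA bone-lineage-like cells held at least 1 *Runx2* UMI, and the median cell held 14 UMIs in PBS and 42 in CFA. Its level there was 1754 CPM in PBS (interval 1643 to 1871) and 3069 in CFA (2925 to 3219). Tenocyte-like cells followed at 1015 in PBS and 1495 in CFA. Dendritic-like cells came next, at 992 CPM of *Runx2* in PBS, where the interval overlapped that of tenocyte-like cells, and at 917 in CFA, where it overlapped that of chondrocyte-like cells (897). *Runx2* was also counted in 69.0% of the 42 CFA T or NK-like cells (411 CPM) and in 80.8% of 271 CFA osteoclast-like cells (109 CPM). In endothelial-like cells it stood at 5.02 in PBS and 8.4 in CFA.

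*Sp7* was rare and kept to the skeletal classes. In PBS its level was 103 CPM in chondrocyte-like, 101 in bone-lineage-like and 54.5 in tenocyte-like cells, the first pair with overlapping intervals. In CFA the bone-lineage-like class stood at 164 (132 to 202), chondrocyte-like cells at 84.5 and tenocyte-like cells at 60.3. No other named class with at least 20 cells passed 3.59 in PBS or 5.29 in CFA, both in mural-like cells, and the unnamed clusters together stood at 4.49 and 36.2. *Sp7* UMIs were held by 16 of 35 PBS (45.7%) and 22 of 28 CFA (78.6%) bone-lineage-like cells.

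*Ibsp*, a matrix gene of early mineralization, was above all a chondrocyte-class transcript here. Chondrocyte-like cells held 77.2% of all *Ibsp* UMIs of the kept PBS cells and 90.5% of those of the CFA cells. Their level was 6546 CPM in PBS and 26958 in CFA, against 2157 and 7128 in bone-lineage-like cells and 977 and 448 in tenocyte-like cells. The transcripts sat in few cells, 26 of 86 PBS (30.2%) and 35 of 85 CFA (41.2%) chondrocyte-like cells, with up to 3781 UMIs in a PBS cell and 8071 in a CFA cell. Over all kept cells, 3 PBS cells and 6 CFA cells held at least 50% of the *Ibsp* UMIs.

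*Bglap* and *Bglap2* encode osteocalcin and lie side by side on chromosome 3 (GRCm38, minus strand). *Bglap* runs from 88383501 to 88384464 and *Bglap2* from 88377736 to 88378699, with 4801 bases between them and *Bglap3* another 4992 bases on. Their coding sequences of 288 bases differ at 4 positions (98.6% identity), counted from the start codon with the *Bglap* base first: A10C, T14C, A31G and T273C. These stretches of the GENCODE vM21 transcripts hold all 4 differences, shown in capitals, and are printed because the split of reads between the genes rests on so few letters.
Bglap, coding bases 1 to 36: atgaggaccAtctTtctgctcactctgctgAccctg
Bglap2, coding bases 1 to 36: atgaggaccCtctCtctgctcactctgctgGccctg
Bglap, coding bases 253 to 288: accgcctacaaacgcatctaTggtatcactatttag
Bglap2, coding bases 253 to 288: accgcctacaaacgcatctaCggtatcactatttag
The last 149 bases of the transcripts, the end that this 3′ assay reads, are identical in both genes, and 212 of the 351 windows of 90 bases along *Bglap* (60.4%) also occur in *Bglap2*. How the reads were divided between the genes is therefore uncertain.

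The bone-lineage-like class held 88.9% of the *Bglap* and 82.5% of the *Bglap2* UMIs of the kept PBS cells, and 93.7% and 90.4% of those of the CFA cells. Its level was 40754 CPM for *Bglap* and 20452 for *Bglap2* in PBS, and 26860 and 12837 in CFA. Within the class the spread was extreme. Per PBS cell, *Bglap* ran from 0 to 7223 UMIs with a median of 1, and 2 of the 35 cells held 64.6% of the class's *Bglap* UMIs. Per CFA cell it ran from 0 to 5969 with a median of 14.5, and 2 of the 28 cells held 57%. *Bglap2* followed, with medians of 1 and 9 and highest cells of 4036 and 2735 UMIs.

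**Figure D2:**
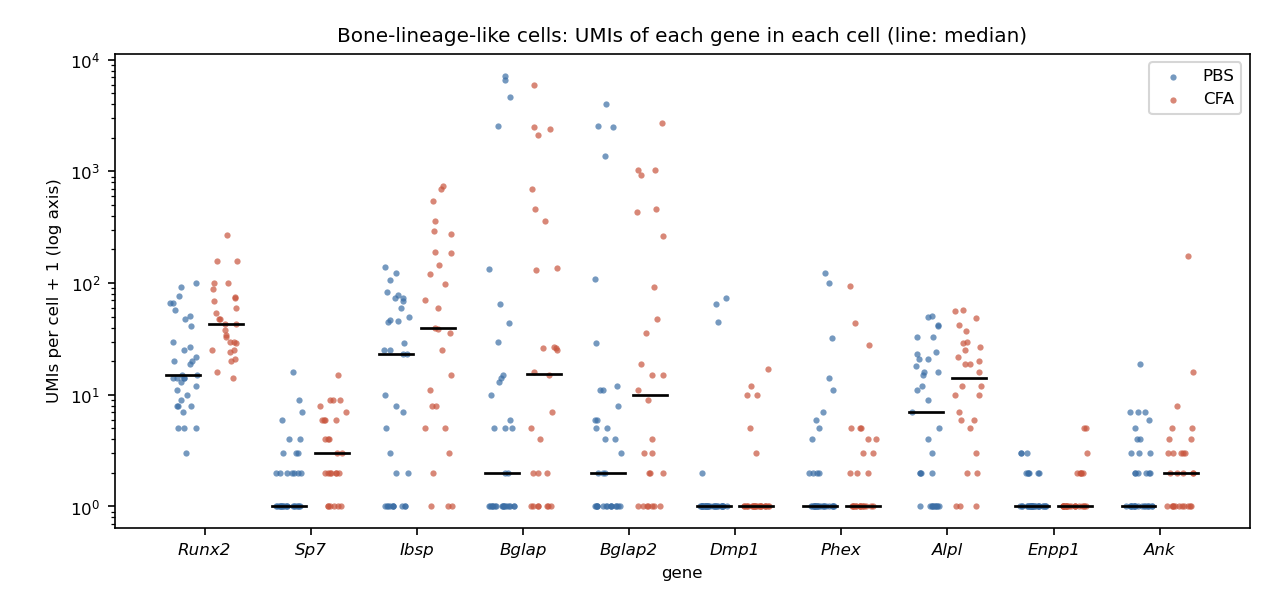
UMIs of each gene in each bone-lineage-like cell plus 1, on a log axis, with 35 PBS cells in blue, 28 CFA cells in red and a line at the median. The genes *Bglap*, *Bglap2*, *Dmp1* and *Phex* show a few cells far above the median, while *Runx2* is present in every cell.

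*Bglap2* made up 33.4% of the *Bglap* and *Bglap2* UMIs of bone-lineage-like cells in PBS (32.9 to 33.9%) and 32.3% in CFA (31.7 to 33%). Tenocyte-like cells split their UMIs about evenly, at 49.5% *Bglap2* in PBS (47.7 to 51.4%) and 50.6% in CFA (46.9 to 54.4%). The 30 PBS lining fibroblast-like cells, the *Prg4*-marked cells of the synovial surface, held 276 *Bglap2* against 76 *Bglap* UMIs, a *Bglap2* share of 78.4% (73.7 to 82.6%). Of these cells, 15 held more *Bglap2* than *Bglap* and 2 held more *Bglap*. The CFA library had 6 lining fibroblast-like cells, too few to set beside them. The intervals of these 3 classes do not overlap in PBS, but they count UMIs and not cells. In PBS, 3 lining fibroblast-like cells held at least 50% of the *Bglap2* UMIs of their class. High shares were also found in skeletal subclusters described below. They were 74.5% in 7 PBS cells led by *Kcnq5* (65.4 to 82.4%) and 76.9% in 38 CFA cells led by *Igfbp5* (64.8 to 86.5%).

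**Figure D3:**
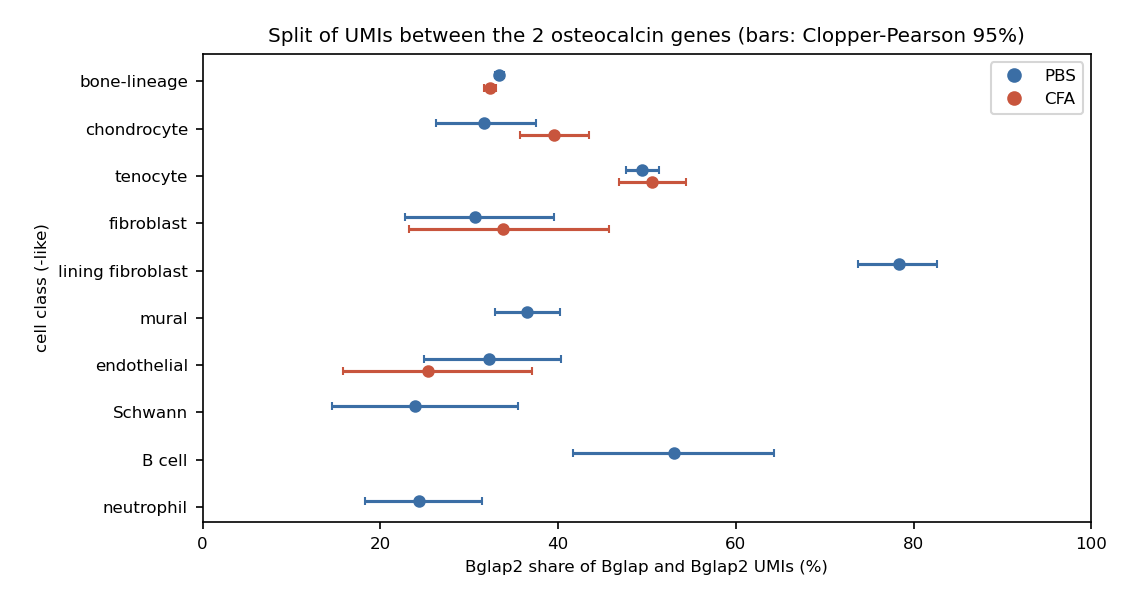
Share of *Bglap2* among the *Bglap* and *Bglap2* UMIs of each class with at least 50 such UMIs in the library (x axis, percent), PBS in blue and CFA in red, with Clopper-Pearson 95% intervals. Bone-lineage-like cells sit near 33%, tenocyte-like cells near 50% and PBS lining fibroblast-like cells at 78.4%.

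*Dmp1* was close to absent outside the bone-lineage-like class. The class held 182 of the 203 PBS and 51 of the 57 CFA *Dmp1* UMIs, a level of 348 (299 to 402) and 92.1 CPM (68.6 to 121). These came from 4 PBS cells, with up to 73 UMIs each, and 6 CFA cells, with up to 16. All 4 of these PBS cells and all 6 CFA cells also held *Sp7*, *Ibsp*, *Bglap* and *Bglap2*. Among chondrocyte-like cells 0 of 86 in PBS (which allows a share of up to 3.49%) and 0 of 85 in CFA (up to 3.53%) held a *Dmp1* UMI. The remaining CFA UMIs were single molecules in 6 of 222 mural-like cells.

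*Phex* had a second home in fibroblasts. Its level was highest in bone-lineage-like cells, at 568 CPM in PBS (505 to 636) and 341 in CFA (294 to 394). Fibroblast-like cells stood at 74 in PBS, where 67 of 469 cells (14.3%) held it, and at 26.2 in CFA, where 26 of 373 cells (6.97%) did. Because fibroblast-like cells were many, they held 47.1% of the PBS *Phex* UMIs against 35.4% in bone-lineage-like cells. In CFA the order turned, with 30.7% in fibroblast-like and 40% in bone-lineage-like cells.

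Among the phosphate and pyrophosphate genes, *Alpl* was highest in bone-lineage-like cells (837 CPM in PBS and 901 in CFA), then in tenocyte-like (472) and chondrocyte-like cells (377) in PBS and in the reverse order in CFA (679 in chondrocyte-like, 353 in tenocyte-like). Endothelial-like cells came next at 71.4 and 61.2, with *Alpl* held by 24.6% of 706 cells in PBS and by 20.3% of 951 in CFA, and B-like cells stood at 46.9 and 41.3. *Enpp1* was highest in chondrocyte-like cells, at 163 in PBS (145 to 183) and 185 in CFA (167 to 206), and held by 73.3% and 77.6% of them. Fibroblast-like cells followed in PBS at 49.8, and tenocyte-like cells in CFA at 74.6. Bone-lineage-like cells were low in *Enpp1*, at 22.9 and 27.1 CPM.

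*Ank* was counted in every class with at least 20 cells, with the limit that hemoglobin-rich barcodes held it too. In PBS it was highest in Schwann-like cells (249 CPM, 224 to 275), then in tenocyte-like cells (178) and in chondrocyte-like and bone-lineage-like cells (120 each). In CFA Schwann-like (234), chondrocyte-like (231) and tenocyte-like cells (219) could not be ordered beyond their counting intervals. The CFA bone-lineage-like class stood above them at 408, but 175 of its 226 *Ank* UMIs lay in 1 cell.

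Free RNA in the droplets gives UMIs to cells that do not make a gene, so each level was set beside that of barcodes with over 50% hemoglobin UMIs (310 in PBS, median 9020 UMIs, and 190 in CFA, median 8312), in CPM of the UMIs other than hemoglobin. *Bglap* was in 17.1% of these PBS barcodes (69.6 CPM) and 4.21% of the CFA ones (17 CPM). *Ibsp* went the other way, at 7.74% (29.4 CPM) and 12.6% (62.2 CPM). *Sp7* was in none of them. For *Bglap*, the lower bound of 6 of 13 PBS classes and 3 of 15 CFA classes lay above the upper bound of that background, and for *Ibsp* 3 and 3. For *Dmp1* it was 1 and 1, the bone-lineage-like class in both libraries. The PBS mural-like level of *Bglap* (228) was among the 6, but 415 of its 444 UMIs were in 1 cell. *Ank* could not be set against this background, since 58.7% of the PBS and 56.3% of the CFA hemoglobin-rich barcodes held it.

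Over all kept cells, *Bglap*, *Bglap2*, *Dmp1* and *Phex* were lower in the CFA library and *Ibsp* was higher. A gene with at least 20 UMIs in the libraries together was called when the levels differed by at least 2-fold. Of the 10 genes, 4 were at least 2-fold lower in CFA (*Bglap*, *Bglap2*, *Dmp1* and *Phex*), against 10.4% of the 18099 genes tested, and 1 was at least 2-fold higher (*Ibsp*), against 9.56%. The median log2 CFA to PBS ratio of the 10 genes was -0.59, beside -0.20 over all genes, a general shift against which the ratios should be read. *Bglap* stood at 882 CPM in PBS and 357 in CFA, a ratio of 0.405 (0.397 to 0.413), and *Bglap2* at 477 and 177, a ratio of 0.371. *Dmp1* had the lowest ratio, 0.172 (0.126 to 0.232), from 7.46 to 1.28, and *Phex* stood at 30.8 and 10.6 (0.345, 0.307 to 0.386). *Ibsp* stood at 546 and 1277, a ratio of 2.34 (2.30 to 2.38).

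The other 5 genes lay within 2-fold over all kept cells. *Runx2* was at 210 CPM in PBS and 217 in CFA (ratio 1.03, 0.999 to 1.07), so the libraries could not be told apart for it by counting error. *Sp7* stood at 13.9 and 10.2 (0.735), *Alpl* at 102 and 71.4 (0.697), *Enpp1* at 28.7 and 21.7 (0.756) and *Ank* at 96 and 60.7 (0.632), each with an interval below 1. The share of cells with a UMI went the same way for *Bglap*, at 17.5% in PBS and 7% in CFA, and after thinning every cell to 1000 UMIs at 4.25% and 1.57%. Hemoglobin-rich barcodes held *Bglap* at similar shares, 17.1% in PBS and 4.21% in CFA. How much of the share over all cells came from free RNA was not tested. *Runx2* was in 19.9% and 26.9% of cells, and after thinning in 7.96% and 8.88%, with overlapping intervals.

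Some measured facts of the libraries move with these ratios. The removed hemoglobin-rich PBS cells held 40.9% of the PBS *Bglap* UMIs, 39.4% of the *Bglap2*, 33.9% of the *Dmp1* and 7.17% of the *Ibsp* UMIs, while the removed CFA cells held at most 1.53% of the UMIs of any of the 10 genes other than *Ank* (21%). Without the hemoglobin limit the same 4 genes were at least 2-fold lower and the same 1 higher, against 8.44% and 10.5% of genes. When the 5% of cells with the highest Scrublet doublet score were left out of each library, *Ibsp* fell within 2-fold (1.13), as did *Dmp1* (0.712), and 3 genes were called lower and 0 higher. Leaving out the bone-lineage-like class, an alternative chosen after seeing the data, gave *Bglap* 0.228 and *Bglap2* 0.202. The PBS *Bglap* UMIs left then included 1454 in tenocyte-like cells, 415 in 1 mural-like cell and 116 in 1 neutrophil-like cell. For *Bglap*, 7 of the 13 PBS classes did not lie above the background of hemoglobin-rich barcodes. The part of free RNA in these 2 ratios was not tested. In mixed cells, fewer cells of a type and less RNA per cell cannot be told apart, so the classes were compared one by one.

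**Figure D4:**
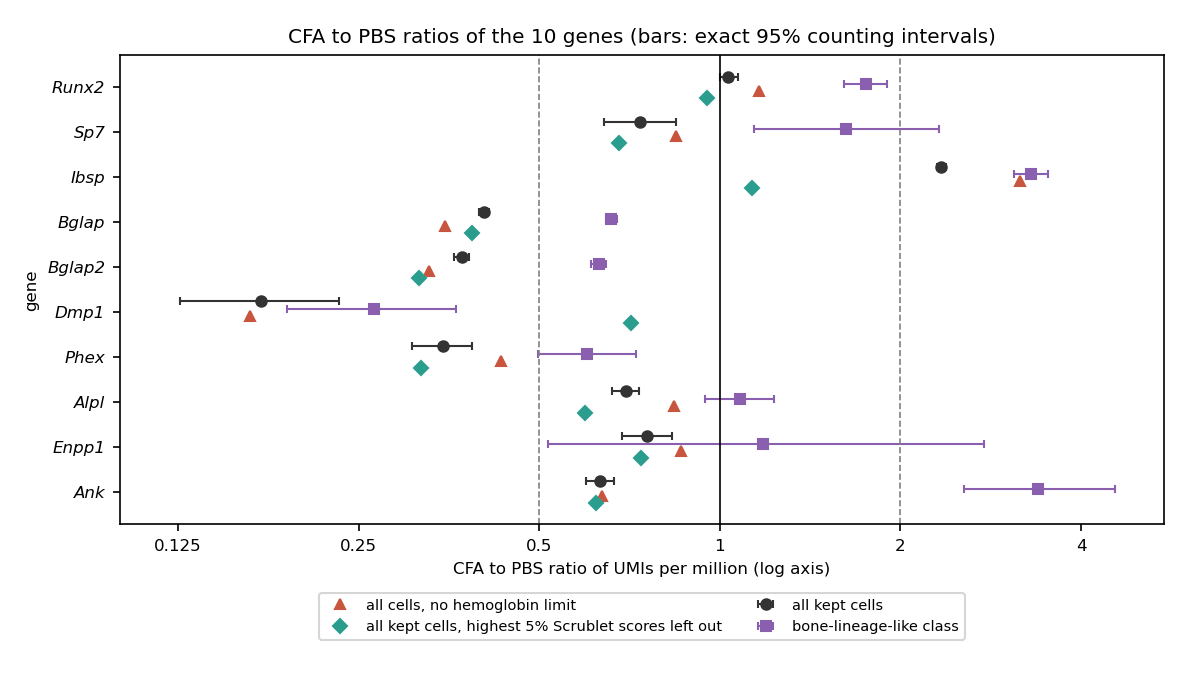
CFA to PBS ratio of CPM (log x axis) for each gene over all kept cells (black circles) and in bone-lineage-like cells (purple squares), both with exact 95% counting intervals, and over all cells without the hemoglobin limit (red triangles) or without the highest 5% of Scrublet scores (green diamonds). Dashed lines mark 2-fold; *Bglap*, *Bglap2* and *Phex* lie left of the lower line in all 3 sets over all cells, and *Ibsp* moves from 2.34 to 1.13 without the highest Scrublet scores.

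Within the bone-lineage-like class the picture was narrower. *Dmp1* was the 1 gene of 10 called lower in CFA (0.265, 0.190 to 0.363), against 8.62% of the 6635 genes tested, and *Ibsp* (3.3, 3.09 to 3.53) and *Ank* (3.39) were called higher, against 5.02%. With the highest 5% of Scrublet scores left out, which take in 6 cells of the class in each library, the class was rebuilt with 155 and 103 cells and its *Ibsp* ratio was 0.885. Without the single cell richest in *Ank* in each library, the *Ank* ratio was 1.17. *Bglap* (0.659), *Bglap2* (0.628) and *Phex* (0.601) were lower by less than 2-fold, and *Runx2* (1.75, 1.61 to 1.90) and *Sp7* (1.62, 1.14 to 2.32) were higher by less than 2-fold. *Alpl* (1.08) and *Enpp1* (1.18) had intervals that held 1. The class itself depended on the limits. Rebuilt without the hemoglobin limit it held 113 PBS and 15 CFA cells, and the ratios were 1.16 for *Bglap*, 1.07 for *Bglap2*, 1.52 for *Phex* and 0.505 for *Dmp1*.

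To look inside the skeletal classes, the 620 cells of the bone-lineage-like, tenocyte-like and chondrocyte-like clusters and of an unnamed cluster with 3 bone-lineage markers were clustered again, without the 10 genes, into 15 subclusters (312 PBS and 308 CFA cells). Nearly all *Bglap* came from a subcluster led by *Car3*, *Lipc* and *Ifitm5*, the last a gene of mineralizing osteoblasts. Its 8 PBS cells held 88% and its 16 CFA cells 93.2% of their library's *Bglap* UMIs, and 89.7% and 89.5% of the *Dmp1* UMIs. *Bglap* and *Bglap2* together were 15.6% of all UMIs of the 8 PBS cells and 5.59% of those of the 16 CFA cells. By CPM, *Bglap* stood at 104332 in PBS and 37876 in CFA (ratio 0.363), *Bglap2* at 52102 and 17996 (0.345), *Dmp1* at 899 and 131 (0.145) and *Phex* at 1387 and 474 (0.341). *Ibsp* went the other way, from 2380 to 9343 (3.93), as did *Runx2* (711 and 2261, 3.18), *Ank* (183 and 551, 3.01) and *Alpl* (346 and 694, 2.01), while *Sp7* was level (173 and 182). Of the 215 CFA *Ank* UMIs of the subcluster, 175 lay in 1 cell, so the *Ank* call rests on that cell.

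Of the 9 genes with enough UMIs in that subcluster, 4 were thus lower, against 2.59% of its 3668 genes, and 4 higher, against 20.2%. Few cells carried the 4 lower calls. The 4 PBS cells richest in *Bglap* held 7223, 6549, 4660 and 2560 of its 21132 UMIs, and no other PBS cell of the class held over 133. In CFA, 2 cells held 8478 of the 14792 *Bglap* UMIs. For *Bglap2*, 2 cells held 6601 of 10553 UMIs in PBS and 3762 of 7028 in CFA. In PBS, 2 cells held 221 of the 281 *Phex* UMIs and 2 cells held 137 of the 182 *Dmp1* UMIs. In CFA, 2 cells held 137 of the 185 *Phex* UMIs. The median log2 ratio of all genes of the subcluster was 0.36, so the 4 higher calls, with *Alpl* at 2.01, should be read against that shift. CPM is a share of a total, of which *Bglap* and *Bglap2* took 15.6% in PBS and 5.59% in CFA. The levels of the other genes are therefore not independent of these 2 genes. Scrublet placed 6 of its 8 PBS and 6 of its 16 CFA cells among the highest 5% of scores, and the part of doublets in these values was not tested. The other subcluster of the class, led by *Cxcl12*, *Ebf3* and *Lepr*, had 26 PBS and 10 CFA cells and none among those scores. It held no *Dmp1* UMI. Its *Ibsp* was level at 2119 in PBS and 2104 in CFA (ratio 0.993, 0.861 to 1.14), as was *Alpl* at 1169 and 1265, while *Runx2* stood at 2348 and 5185 (2.21), the 1 gene of 8 called higher there, against 7.62% of genes, with 0 called lower, against 11.9%. The make-up of the class therefore differed between libraries, with the *Ifitm5*-led subcluster at 8 of 35 PBS and 16 of 28 CFA cells.

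**Figure D5:**
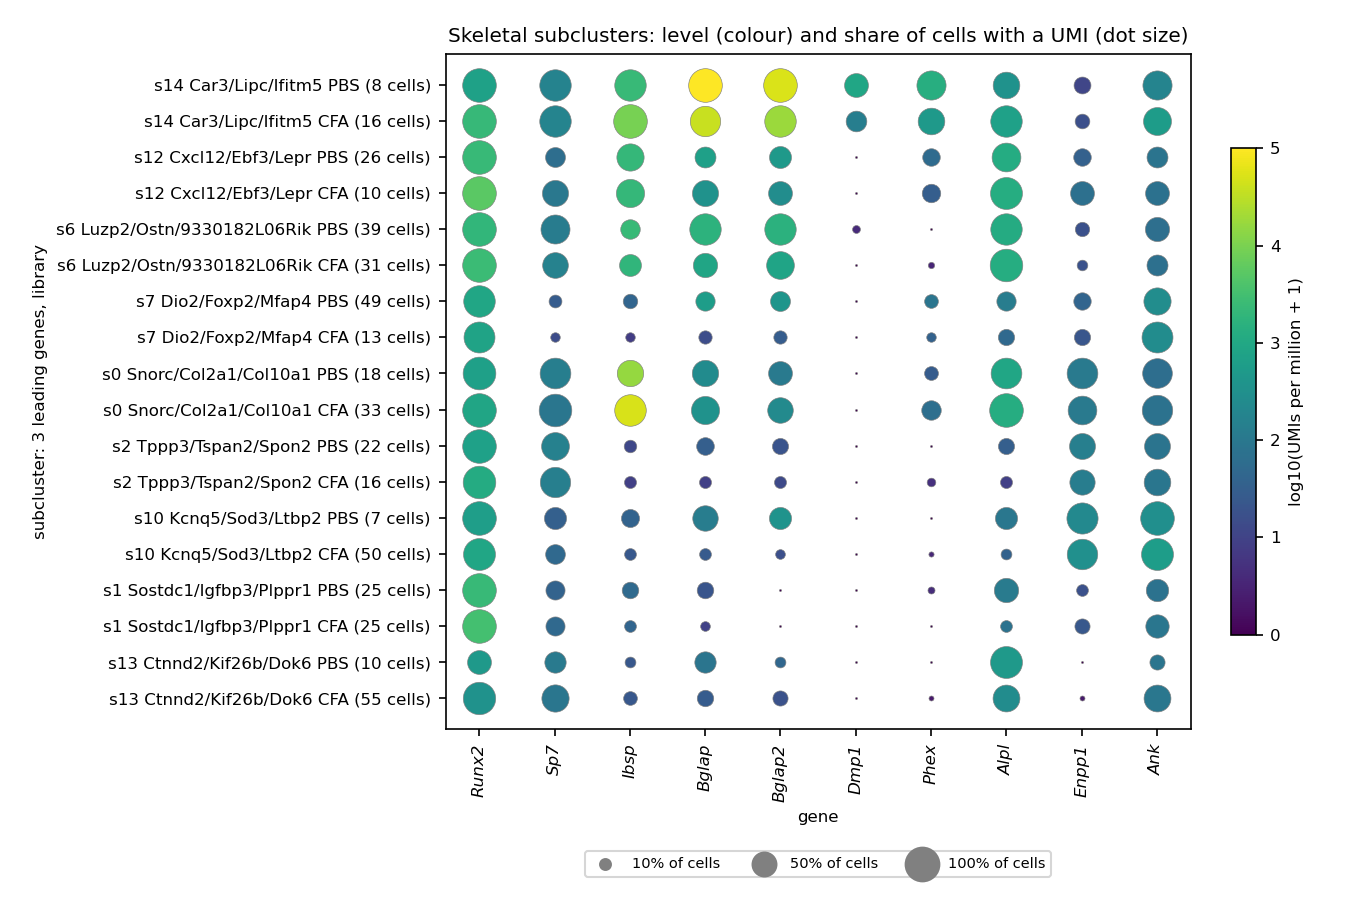
Level (colour, log10 of CPM plus 1) and share of cells with a UMI (dot size) of each gene in 9 of the 15 skeletal subclusters, PBS and CFA as separate rows named by their leading genes. The top rows, led by *Car3*, *Lipc* and *Ifitm5*, are the only ones with large *Dmp1* dots, and the *Col2a1* and *Col10a1* rows hold the highest *Ibsp*.

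A subcluster of 39 PBS and 31 CFA cells, 67 of them in the tenocyte-like cluster, was led by *Luzp2*, *Ostn* (osteocrin, a peptide of osteoblasts) and *Mmp13*. All of them held *Runx2* (1997 CPM in PBS and 2595 in CFA), and 87.2% and 93.5% held *Alpl* (1127 and 1225). *Sp7* stood at 119 and 158, *Ibsp* at 2380 and 1861, *Bglap* at 1619 and 867 and *Bglap2* at 1578 and 819. In PBS these cells held 1372 *Runx2*, 1635 *Ibsp*, 1112 *Bglap* and 774 *Alpl* UMIs, beside 2088, 2010, 1454 and 971 in the tenocyte-like class. In the subcluster *Phex* was at 0 in PBS and 2.43 in CFA. Of the 7 genes with enough UMIs 0 were called lower there, against 5.22% of genes, and 0 higher, against 4.94%, though *Bglap* (0.536, 0.474 to 0.604) and *Bglap2* (0.519, 0.458 to 0.587) were near the lower bound. By contrast, the *Chodl* and *Tnmd* tenocyte-like subcluster (31 PBS and 14 CFA cells) held no *Sp7* and no *Alpl* UMI and had *Ank* at 351 and 191. Over the whole tenocyte-like class, 4 of 9 genes were called lower (*Ibsp* 0.458, *Bglap* 0.365, *Bglap2* 0.382 and *Phex* 0.497), against 6.04% of genes, and *Enpp1* was called higher (2.44), against 3.97%. In CFA, 446 of the 594 *Ibsp* UMIs of the class lay in 1 cell. The class drew on different subclusters in each library, among them one led by *Igfbp5*, *Gpnmb* and *Hmcn1* with 2 PBS and 38 CFA cells and one led by *Clec3b*, *Apod* and *Ryr3* with 14 and 1, so its make-up and its levels within cells cannot be told apart. A subcluster led by *Dio2*, *Foxp2* and *Mfap4* with 49 PBS and 13 CFA cells had *Bglap* at 275 and 2 UMIs and *Bglap2* at 187 and 4.

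Chondrocyte-like cells carried the *Ibsp* difference. In the class, *Ibsp* was 4.12-fold higher in CFA (4.04 to 4.20) and *Bglap2* 2.56-fold (2 to 3.3), 2 of 9 genes against 4.53% of the 10131 genes tested, and 0 were called lower, against 7.71%. The *Bglap2* call leans on 1 CFA cell, which held 113 of the class's 248 UMIs, beside 89 UMIs in PBS with at most 25 in a cell. *Runx2* (1.81), *Alpl* (1.8), *Ank* (1.92) and *Bglap* (1.81) were higher by less than 2-fold. The make-up of this class differed too, with a subcluster led by *Cytl1* and *Wfdc2* at 36 PBS and 0 CFA cells and a dividing one led by *Cenpf* and *Top2a* at 19 and 3. Nearly all of the *Ibsp* lay in 18 PBS and 33 CFA cells led by *Snorc*, *Col2a1* and *Col10a1*, the last a collagen of enlarged cartilage cells, with *Ihh* among the 10 leading genes. These cells stood at 16532 CPM in PBS and 48732 in CFA (2.95, 2.89 to 3.01), and held *Alpl* at 901 and 1220 (1.35). Within them the ratios were 1.33 for *Runx2*, 1.29 for *Ank* and 1.45 for *Bglap*. Of 9 genes, *Ibsp*, *Bglap2* (2.17) and *Phex* (2.31) were called higher in them, 3 against 6.49% of genes, and 0 lower, against 7.35%. The CFA cell with 113 *Bglap2* UMIs weighs here too, among 245 in the subcluster. Scrublet placed 1 of these 18 PBS cells and 12 of these 33 CFA cells in the highest 5% of scores. A subcluster led by *Kcnq5*, *Sod3* and *Ltbp2* (7 PBS and 50 CFA cells, of which 38 in all lay in the chondrocyte-like cluster) was rich in *Enpp1*, at 229 and 305, with *Ank* at 292 and 589 and *Ibsp* at 36 and 22.2. Its CFA to PBS ratios were 0.373 for *Alpl*, 0.197 for *Bglap* and 0.0425 for *Bglap2*.

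Among the other classes, *Phex* in fibroblast-like cells was 1 of 8 genes called lower in CFA (0.354, 0.291 to 0.430), against 5.23% of genes, and 0 were called higher, against 7.89%. Endothelial-like cells had *Bglap*, *Bglap2* and *Enpp1* called lower and *Ibsp* higher, against 5.98% and 5.02%. Their *Bglap* levels of 17.8 and 7.95 and *Ibsp* levels of 9.7 and 26.3 were below those of the hemoglobin-rich barcodes. The barcode levels, counted over UMIs other than hemoglobin, differed between the libraries in the same directions. Whether free RNA gave the endothelial-like UMIs was not tested. *Enpp1* in endothelial-like cells (21 and 4 UMIs) stood at 3.64 and 0.6 CPM, beside hemoglobin-rich barcodes at 3.26 and 3.77. Mural-like cells had *Bglap* and *Bglap2* called lower, against 4.79%, and *Ibsp* higher (7.18 and 64.9), against 3.80%, beside hemoglobin-rich barcodes at 29.4 and 62.2. Single cells held 415 of the 444 *Bglap* and 244 of the 255 *Bglap2* UMIs of the PBS mural-like cells, and 104 of the 147 *Ibsp* UMIs of the CFA ones.

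A wider list of 34 genes of bone matrix, transcription, mineral and signals was chosen by role. Over all kept cells 32 passed the UMI minimum, 6 were at least 2-fold lower in CFA, beside 10.4% of all genes, and 4 higher, beside 9.56%, with a median log2 ratio of -0.18 beside -0.20 over all genes. Lower were the matrix genes *Sparc* (osteonectin, 0.449), *Mepe* (0.33, from 13 and 7 UMIs) and *Bglap3* (0.0478, from 269 and 21 UMIs), the transcription factor *Dlx5* (0.447), the transporter *Abcc6* (0.245, from 15 and 6 UMIs) and the signal *Bmp4* (0.446). A single PBS cell held 158 of the 269 *Bglap3* UMIs, and 1 cell in each library held 11 and 5 of the *Mepe* UMIs. Higher were *Spp1* (osteopontin, 4.52), which osteoclasts and macrophages also make, the transcription factor *Msx2* (2.81), the kinase *Fam20c* that phosphorylates matrix proteins (3.62) and *Nt5e* (2.31), which makes adenosine outside the cell. The collagen genes *Col1a1* (0.541) and *Col1a2* (0.542) lay within 2-fold. In bone-lineage-like cells 25 passed, 5 were lower (*Omd*, *Bglap3*, *Slc20a2*, *Bmp2* and *Bmp4*), beside 8.62% of the genes tested there, and 3 higher (*Ifitm5* 2.02, *Smpd3* 3.61 and *Lrp5* 2.02), beside 5.02%, while *Col1a1* stood at 42155 and 60968 CPM. The osteocyte gene *Sost* was too rare to compare, with 6 PBS and 1 CFA UMIs over all kept cells.

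Genes with the most similar pattern were sought over the 28 class-by-library levels, as Pearson's r of log2(CPM + 10) among 14711 genes with at least 100 UMIs. These r values are descriptions, since the classes of a library share its depth and its free RNA. *Dmp1* went with *Bglap3* and *Gdpd2* (r = 0.97 each) and *Hs3st5* (0.95). *Sp7* went with *Wif1* (0.97), *Galnt5* (0.96) and *Mdfi* (0.95), and *Ibsp* with *Slc8a3* and *Col11a2* (0.96 each) and *Pth1r* (0.95). Among the genes nearest to *Bglap* was *Gm36033* (0.92), and among those nearest to *Bglap2* was *Gm19299* (0.88). *Phex* went with *Rspo3* (0.95), *Slc35g1* and *Pappa* (0.92 each), *Alpl* with *Col13a1* (0.92), *Fgfr3* and *Fgfr2* (0.91 each), and *Enpp1* with *Sdk2*, *Loxl3* and *Spon2* (0.91 each). The least matched were *Runx2*, with *Rab27b* (0.88), *Intu* and *Tnfsf11* (0.79 each), and *Ank*, with *P3h1* (0.83), *Glt8d1* and *Eid1* (0.82 each).

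Neighbouring genes went the same way in one gene cluster and not in another. *Bglap*, *Bglap2* and *Bglap3* were each lower in CFA over all kept cells. The transcripts of *Bglap* and *Bglap2* share their last 149 bases, and both share their last 78 with *Bglap3*. The 3 ratios may therefore not be independent. *Dmp1* (chromosome 5, 104202613 to 104214102, plus strand) and *Ibsp* (104299171 to 104311469, plus strand) lie 85068 bases apart, followed by *Mepe* and *Spp1*, yet *Dmp1* and *Mepe* were lower and *Ibsp* and *Spp1* higher in CFA over all kept cells. *Mepe* rests on few UMIs, with 11 of 13 in PBS and 5 of 7 in CFA in 1 cell each. These ratios also sum different cells, since most *Dmp1* lay in bone-lineage-like and most *Ibsp* in chondrocyte-like cells. RefSeq promoter entries (GRCm38.p6), which 8 of the 10 genes had, gave the 250 bases before their own start. That start lies 116 bases inside the annotated gene for *Ibsp* and 170 bases inside it for *Runx2*. Part of each of these windows is thus within the gene. In the other entries the start lies at most 26 bases from the annotated one. The core site of Runx factors, ACCACA or TGTGGT on the printed strand, was in 4 of them (*Runx2*, *Bglap*, *Dmp1* and *Enpp1*), against 14% of the 32851 promoters. TATAAA or TTTATA was in 2 (*Bglap* and *Ibsp*), against 12.4%. The promoters of *Bglap* and *Dmp1*, low in CFA, and of *Ibsp*, high in CFA, are printed with the Runx core in capitals. It starts 132 bases before the start in *Bglap* and 164 bases before it in *Dmp1*, and these letters are not in the *Ibsp* window. A match of letters is not a bound site.
Bglap, chr3:88384467-88384716, minus strand: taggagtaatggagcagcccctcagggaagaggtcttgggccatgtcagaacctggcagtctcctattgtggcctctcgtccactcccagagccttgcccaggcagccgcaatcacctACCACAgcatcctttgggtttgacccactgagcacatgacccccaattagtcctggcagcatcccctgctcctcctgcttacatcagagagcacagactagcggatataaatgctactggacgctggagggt
Dmp1, chr5:104202367-104202616, plus strand: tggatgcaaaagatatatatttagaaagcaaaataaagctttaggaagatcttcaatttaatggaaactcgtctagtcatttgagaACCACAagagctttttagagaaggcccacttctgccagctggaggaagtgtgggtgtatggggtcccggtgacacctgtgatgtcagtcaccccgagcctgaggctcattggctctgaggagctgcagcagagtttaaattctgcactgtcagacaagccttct
Ibsp, chr5:104299037-104299286, plus strand: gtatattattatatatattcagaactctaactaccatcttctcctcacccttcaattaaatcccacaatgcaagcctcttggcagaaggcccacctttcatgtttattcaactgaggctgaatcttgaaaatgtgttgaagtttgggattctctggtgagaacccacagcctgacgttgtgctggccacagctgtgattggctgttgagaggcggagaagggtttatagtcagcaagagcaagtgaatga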

How the data were processed

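The authors deposited gene-by-barcode UMI counts for 2 droplet libraries, made with Cell Ranger 7.0.1 on GRCm38 according to the submitters' processing notes. The labels and the methods differ on kit version and digestion. Barcodes were filtered on genes (at least 500), mitochondrial (at most 10%) and hemoglobin UMIs (at most 1%). Cells were clustered with R 4.3.3 and Seurat 5.3.0 after the study's methods (SCTransform, integration anchors on 3000 genes, 200 principal components, resolution 1.5), without the 10 genes and *Bglap3*. Clusters were named from fixed marker lists, but how markers were scored was changed once a first set of names had been looked at. The 10 genes and all lists were chosen with earlier results of these data known. Every member was described in each class with at least 20 cells in the library, list genes were named when at least 2-fold different over all kept cells, and the 3 genes of most similar pattern were named for each member, except that some of those for *Bglap* and *Bglap2* are not reported here. Lists in single classes, subclusters and the split of *Bglap2* were described after values were seen. Summed UMIs carry exact Poisson, ratios exact conditional binomial and shares Clopper-Pearson intervals (95%), and a share of 0 the limit of 3 counts of the total. Thinning to 1000 UMIs left out 55 PBS and 129 CFA cells. Subclusters came from scanpy 1.11.5 (2000 variable genes, 30 components, resolution 1). No doublet was removed in the main analysis, since the threshold that Scrublet set by itself caught 21 cells in PBS and 2 in CFA. The ratio and naming steps were tested on simulated data. Positions came from GENCODE vM21, and promoters from RefSeq. No test was run, since each condition had 1 library.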

Additional observations from a re-analysis of the deposited data

Results flagged for a closer look

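*Ank* stood out in cells that the comparisons left out. In the 339 CFA cells above the hemoglobin limit it was at 310 CPM of the UMIs other than hemoglobin (288 to 334), against 187 (179 to 195) in the 3178 such PBS cells, and 65.2% and 31.5% of them held it. These cells differed in depth, with a median of 9359 UMIs in CFA and 2693.5 in PBS, so the shares of cells are not comparable. In barcodes with over 50% hemoglobin UMIs, of similar depth in both libraries, *Ank* stood at 539 CPM of the UMIs other than hemoglobin in CFA and 568 in PBS. It was brought up because a signal in unused CFA data lay above the level in the same PBS data.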

How the results depend on the processing

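No paired analysis was possible because each condition had 1 library and no test was run. For the same reason no replicate could be left out. The bone-lineage-like share of kept cells, 1.31% in PBS and 0.698% in CFA, became 1.98% and 2.4% with a mitochondrial limit of 20%, 1.93% and 0.345% with no hemoglobin limit, 6.07% and 2.7% with the highest 5% of Scrublet scores left out, 5.89% and 4.53% with 50 principal components and 7.2% and 4.19% with log-normalized counts and no integration. With each cell classed on its own the shares were 0.525% in PBS and 0.548% in CFA, so the order of the libraries turned, as it did with a mitochondrial limit of 20%. The number of genes called lower in CFA within the class, 1 in the report, was 4 with a mitochondrial limit of 20% and with each cell classed on its own, and 2 with 50 principal components and with the mean over cells of each cell's level. The number of genes highest in the class in CFA, 8 in the report, was 5 with a mitochondrial limit of 20% and with the highest Scrublet scores left out. Within the class, the *Ibsp* ratio of 3.3 became 0.885 with the highest Scrublet scores left out, and the *Ank* ratio of 3.39 became 0.904 with each cell classed on its own. The cause of these shifts was not tested. No count of highest genes was taken where the class had under 20 cells in a library, which were 15 CFA cells with no hemoglobin limit and 14 PBS cells classed on their own. Over all kept cells the ratios of the 10 genes stayed on their side of 1 under every alternative tried, except *Runx2* at 0.953 with the highest Scrublet scores left out. With 35 PBS and 28 CFA cells in the class, and 8 PBS cells in its *Ifitm5*-led subcluster, single cells weigh heavily on these values.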
